A study of Mus musculus with 4 samples.

Results

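Collagens are the triple-helical proteins of the extracellular matrix, and their genes were described here in mouse spermatogonial stem cells (SSCs) grown in culture, the germ cells that renew themselves and found the male germ line. Members were all genes whose symbol in the deposited FPKM table has the form of a collagen alpha chain, Col, type number, a, chain number. This rule took 44 of 37653 genes and reads symbols alone, but it was chosen with earlier results of these data known. Of these, 11 encode fibrillar collagens, 6 encode the type IV collagens of basement membranes, and 27 encode other types. Poly(A) RNA of 4 libraries had been sequenced, 2 from wild-type (WT) cells and 2 from cells labelled Tex11PM/Y, named for Tex11, an X-linked gene of meiotic recombination. All cells came from C57/BL6*DBA2 mice of postnatal day 10, were grown and passaged in culture and were collected on a cell sorter. The labels do not define PM, and they do not say which other cells were in the cultures, which sorting gate was used, or whether a genotype's libraries derive from different animals. Every p here thus reflects sample-to-sample spread alone, which may be technical.

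A collagen molecule is a triple helix of 3 alpha chains, and the helix needs a glycine at the first place of every triplet of residues, because only glycine has room at its centre. Fibrillar collagens hold 1 long unbroken helix and pack side by side into fibrils. Type IV collagens have many breaks in the helix and join end to end into the sheets on which epithelia and, in the testis, the outer cells of the seminiferous tubule rest. Fibril-associated collagens sit on fibrils, type VI forms beaded filaments, the multiplexins lie at basement membranes, and transmembrane collagens are held in the cell membrane. Fibrillar collagens of mesenchyme are made mainly by fibroblasts and related stromal cells. In bulk RNA, fewer cells of a type and less RNA per cell cannot be told apart.

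The repeat that defines the family can be read in the coding sequences, and 3 stretches of 63 bases are shown because they separate the classes that the results are grouped by. They are from GENCODE M21 transcripts on GRCm38, 5′ to 3′, and capitals mark the GG that opens a glycine codon at the first place of a triplet. The first and second stretches open the longest unbroken run of such triplets in a fibrillar chain, and the third holds the last triplets of the longest run in a type IV chain and the break that follows it.
Col1a1: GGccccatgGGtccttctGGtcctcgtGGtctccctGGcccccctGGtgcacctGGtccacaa
Col3a1: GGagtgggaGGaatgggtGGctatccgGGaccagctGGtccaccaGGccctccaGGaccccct
Col4a1: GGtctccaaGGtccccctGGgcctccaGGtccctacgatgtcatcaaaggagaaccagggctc
These begin at base 502 of the coding sequence in Col1a1, 490 in Col3a1 and 4021 in Col4a1. A complete coding transcript was matched for 42 of the 44 genes, all but Col5a1 and Col25a1. The longest run had a median of 338 triplets in 10 fibrillar genes (range 216 to 344), 43.5 in 6 type IV genes (39 to 66) and 48.5 in 26 other genes (23 to 113). Runs of at least 5 triplets covered a median of 66.4% of codons in fibrillar, 76.2% in type IV and 38.85% in other genes. Thus type IV chains were as rich in the repeat as fibrillar chains, but broken: Col4a1 held 22 such runs with 78.4% of its codons, whereas Col1a1 held 338 triplets in a single run. The fibril-associated Col12a1, mostly built of other domains, had 8.12% of its codons in such runs.

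The 2 WT replicates held 19047148 and 19396809 counts and the Tex11PM/Y libraries 19306140 and 19804951; the latter are called A and B because their columns share a name. Levels are given in CPM, counts scaled to library size with TMM factors, where 3 counts, the most that a count of 0 allows, equal 0.149 to 0.169 CPM. No 2 libraries agreed within sampling noise. Tex11 itself stood at 66.4 and 126 CPM in WT, against 22.7 and 9.32 CPM in A and B. All 12 fixed SSC and germ cell markers were measured, with a summed level of 2719 and 3022 CPM in WT, compared with 3950.1 and 3084 CPM in libraries A and B. The members did not move together, and 6 were highest in library A. Gfra1, Ret and Etv5 were the 3 highest in WT replicate 1, and Id4, Nanos2 and Tex14 were highest in library B. Library A stood apart from the other 3 in collagens, and WT replicate 1 stood at the other end, so results are given with and without single libraries.

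Collagen transcripts varied widely between the 2 libraries of each genotype, and the genotypes overlapped. Collagen genes took 1.60% of all counts in WT replicate 1 (95% Wilson interval 1.596 to 1.608%) and 0.485% in WT replicate 2 (0.482 to 0.488%). Their share in Tex11PM/Y cells was 0.0732% in library A (0.0720 to 0.0744%) and 0.640% in library B (0.636 to 0.643%). These intervals cover counting error only. Library A was the lowest, at a share 8.74-fold under that of library B, while library B lay between the WT libraries. Group means were 1.04 ± 0.790% in WT and 0.356 ± 0.401% in Tex11PM/Y (SD, n = 2 each), a difference of -0.687 percentage points (exact permutation test, two-sided, p = 0.667, smallest possible 0.333). Without library A the difference was -0.404 percentage points, and without WT replicate 1 it was -0.129.

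Of the 44 collagens, 38 had enough counts to be tested between genotypes. The other 6 were Col4a3, Col4a4, Col6a5, Col9a1, Col10a1 and Col19a1, each with 11 counts or fewer in every library. None of the 38 was higher or lower in Tex11PM/Y at an edgeR adjusted p under 0.05, against 0.0% of the 17262 genes tested in either direction. DESeq2 also called none of them, against 0.00579% of all genes higher and 0.0% lower, and edgeR without a count filter called none of 44, against 0.0484% of 33024 genes higher and 0.103% lower. At an unadjusted p under 0.05 there was 1 collagen, Col13a1, on the higher side, where 0.991% of all genes stood, with 1.71% on the lower side. Fitted log2 fold changes, Tex11PM/Y against WT, were below 0 for 28 of 38 collagens, against 49.0% of all genes, and below -1 for 15 of 38, against 8.97%. Their median was -0.57, and that of all genes was 0.014. Over all 44 members, with no filter on low counts, the median was -0.44.

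A shared order of the libraries ran through the family. WT replicate 1 held the most, then library B, then WT replicate 2, then library A in 20 of 38 collagens, against 11.2% of all genes. Library A was lowest in 23 of 38 (34.4% of all genes) and WT replicate 1 highest in 25 (34.2%). Library B exceeded library A by at least 2-fold in 20 of 37 collagens with enough counts for the ratio (13.7% of all genes), and was at least 2-fold under it in 5 (12.5%). Within WT, replicate 1 exceeded replicate 2 by at least 2-fold in 17 of 38 (11.4%) and was at least 2-fold under it in 4 (12.4%). WT replicate 2 and library B, of different genotypes, were the closest: none of 38 collagens was at least 2-fold higher in WT replicate 2 (4.13%) and 1, Col28a1, was at least 2-fold lower (2.97%). Over the 44 collagens, log2(FPKM + 0.1) values of WT replicate 2 and library B had a Pearson correlation of 0.993, and those of WT replicate 1 and library A one of 0.707. These describe the profiles of single libraries across genes, which are not independent.

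**Figure D1:**
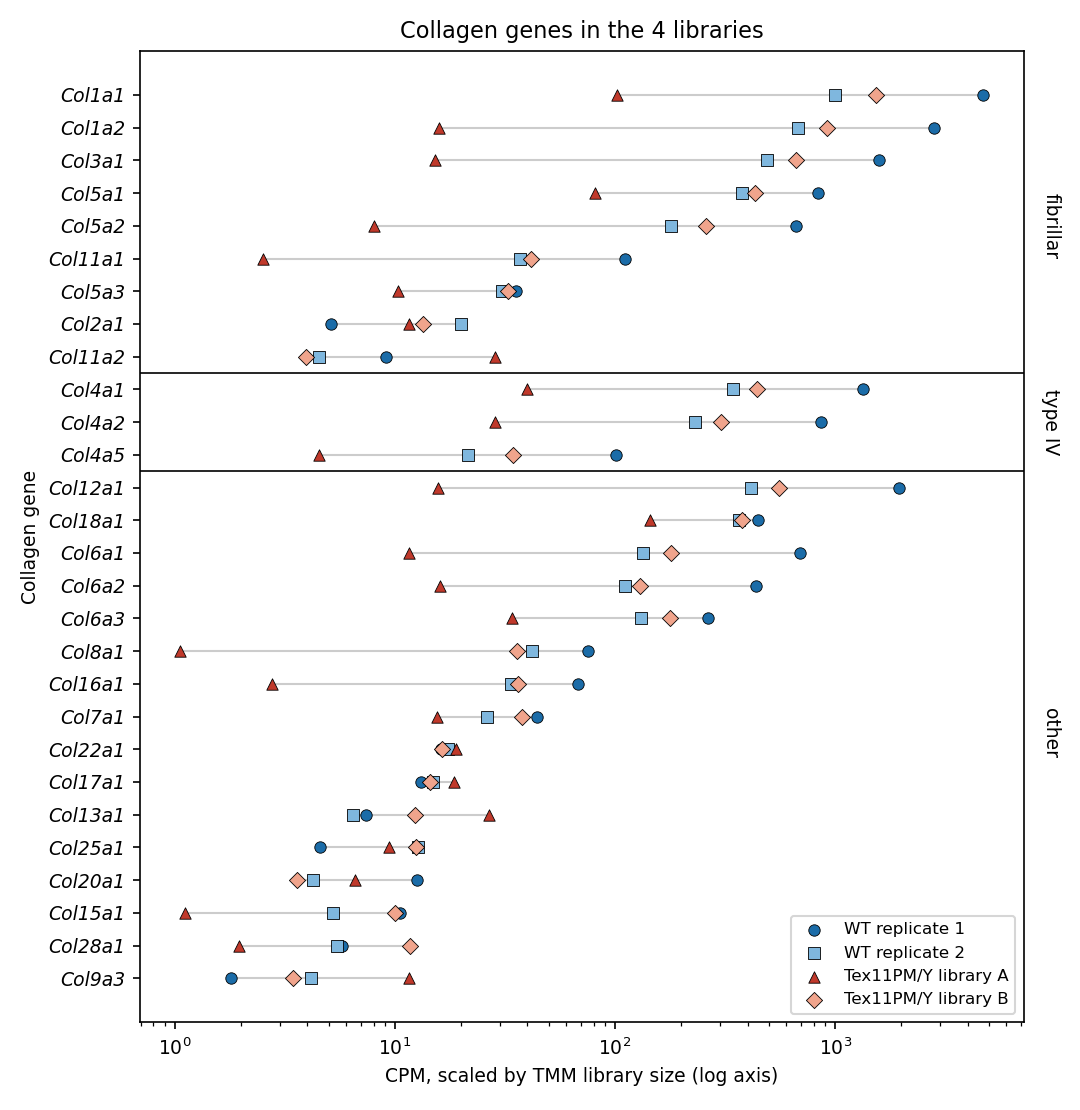
Each row is 1 of the 28 collagens named by the rule (all have a mean of at least 5 CPM), and the 4 points are its CPM in each library on a log axis, with a grey line from the lowest to the highest. Library A (red triangles) is at the left of most rows, far from library B, which lies near WT replicate 2. Col11a2, Col13a1 and Col9a3 are among the rows where library A is at the right.

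Leaving out library B, which leaves library A as the only Tex11PM/Y library, changed the calls. In that fit 13 of 39 collagens passed the threshold on the lower side and none on the higher, against 2.37% and 0.394% of 18765 genes: Col1a1, Col1a2, Col3a1, Col4a1, Col4a2, Col5a1, Col5a2, Col6a2, Col6a3, Col8a1, Col11a1, Col12a1 and Col16a1. Their log2 fold changes ran from -2.58 for Col6a3 to -6.83 for Col1a2, and the median over the 39 collagens was -1.55. The fit assumes that library A varies as the WT libraries do. Without library A, none of 38 passed, 26 were fitted lower and the median was -0.48. Without WT replicate 1 none of 39 passed, 24 were fitted lower and the median was -0.29.

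Several marker sums differed between the same libraries. The fibroblast list without collagens summed to 3162.5 and 1377 CPM in WT, against 188 and 1449 CPM in libraries A and B. Of its 14 genes 11 could be tested, and all 11 were lowest in library A. Dcn and Lum stand in this list and in that of fibril partners. Fbln2, a matrix glycoprotein of mesenchyme, held 1859 and 582 CPM in the WT pair and 13.4 and 633 CPM in A and B. Of the 3 that could not be tested, Tcf21 had at most 1 count and Fap at most 25 in a library. S100a4 had 7 and 6 counts in WT and 0 and 11 in A and B, but its deposited FPKM values were 28.7 and 44.7 in WT and 1.83 and 40.8 in A and B, so the tables differ for it and A is low in both. Peritubular myoid markers summed to 195 and 34.6 CPM in the WT libraries, against 7.50 and 32.0 CPM in A and B. Acta2, the smooth muscle actin gene, held 178 and 24.3 CPM of these in WT, against 2.72 and 22.1 CPM in A and B. In CPM only 3 of the 6 myoid markers, Acta2, Cnn1 and Des, were lowest in A; Myh11 was lowest in WT replicate 1, at 2.70 CPM against 2.97 CPM in A, and Tagln and Actg2 were lowest in B. Tagln had 9 to 26 counts a library, while its deposited FPKM was lowest in A, at 1.39 against 12.3 to 46.0 elsewhere. Macrophage markers summed to 617 and 468 CPM in WT, compared with 23.9 and 1134 CPM in A and B. Lyz2, the lysozyme gene, made up most of the sums outside A, with 529.5 and 417 CPM in WT, against 13.1 and 1052 CPM in A and B. In sum, Sertoli markers stayed between 15.0 and 27.6 CPM, with Fshr at 0 in all libraries, endothelial markers between 14.9 and 17.7 CPM, and Leydig markers between 9.91 and 15.96 CPM. Within the Sertoli sum, Cldn11 had 3.15 and 5.51 CPM in WT, against 0.604 and 1.49 CPM in A and B. Wt1 was instead highest in A, at 7.10 CPM. Star held most of the Leydig sum, with 15.5 and 8.90 CPM in WT, against 13.5 and 9.32 CPM in A and B. Of the 6 Leydig genes, 3 had 3 counts or fewer in every library. The part of other cells in the collagen values was not tested.

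The 2 chains of type I and the chain of type III were the most abundant collagens per length in every library but A. Col1a1 and Col1a2 encode the chains of type I collagen, the main collagen of skin, bone and loose connective tissue. Col1a1, at chr11:94936224-94953042 in mm10, held 4710.1 CPM in WT replicate 1 and 995 CPM in replicate 2, against 102 CPM in library A and 1531 CPM in library B. Col1a2 held 2810.2 and 681 CPM in the WT pair and 15.9 and 920.5 CPM in A and B. In both genes library A was far below the other 3 and the groups overlapped, with B between the WT libraries. In FPKM, Col1a1 was the gene of rank 90 in WT replicate 1, 301 in WT replicate 2, 191 in library B and 4921 in library A. The log2 fold change was -1.80 (SE 1.38) for Col1a1 and -1.90 (SE 1.72) for Col1a2, each with an edgeR adjusted p of 0.884.

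Col3a1, which forms fine reticular fibrils with type I, had 1587 and 488 CPM in the WT libraries, against 15.2 and 661 CPM in libraries A and B. Its neighbour on chromosome 1, Col5a2, encodes a chain of type V, which starts fibrils and limits their width, and had 662 and 179 CPM in WT, compared with 8.06 and 259.7 CPM in A and B. Both repeated the order seen for type I, with B exceeding A by 43.6-fold and 32.2-fold. The log2 fold changes were -1.62 (SE 1.60) and -1.65 (SE 1.53). Col5a1, the partner chain of Col5a2, was less far below the others in library A. It had 834 and 377 CPM in the WT pair and 81.3 and 434 CPM in A and B, with a log2 fold change of -1.23 (SE 0.83). Col5a1 shares 99 and 113 exonic bases with 2 genes on the other strand, and Col3a1 shares 141 with a gene on its own strand. How reads there were counted is not stated. Col5a3, a further type V chain, had 35.3 and 30.8 CPM in the WT libraries, against 10.4 and 32.7 CPM in A and B, so that 3 libraries lay close together and A alone was low.

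Cartilage collagens differed among themselves. Col11a1, a minor fibril chain of cartilage and other tissues, followed type I, with 111 and 37.1 CPM in WT, compared with 2.52 and 41.7 CPM in libraries A and B (log2 fold change -1.74, SE 1.30). Col11a2, its partner in cartilage, differed from it mainly in library A, with 9.16 and 4.50 CPM in the WT pair and 28.4 and 3.94 CPM in A and B. Library A was the only high one, and the log2 fold change of 1.24 (SE 0.90) turned to -0.79 without it. Col2a1, the main collagen of cartilage, had 5.11 and 19.98 CPM in the WT libraries, against 11.5 and 13.4 CPM in A and B. Both Tex11PM/Y libraries lay inside the WT range, and the log2 fold change was -0.010 (SE 0.67). Col24a1 and Col27a1, fibrillar chains with a shorter helix, lay between 1.35 and 4.21 CPM in every library. Of the 11 fibrillar genes, all tested, 9 were fitted lower with a median log2 fold change of -1.23, and 7 had the order WT replicate 1, B, WT replicate 2, A.

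Type IV genes lie in head-to-head pairs, each pair with a common start region. The main pair of most basement membranes, Col4a1 and Col4a2, overlaps by 22 bases at the start of both genes on chromosome 8. This stretch, chr8:11312805-11312826 on the plus strand of GRCm38, is shown because both genes begin in it, with capitals at its GC box, GGGCGG.
Col4a1 and Col4a2: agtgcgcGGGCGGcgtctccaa
Col4a1 had 1339.9 and 343 CPM in WT, compared with 39.9 and 443 CPM in libraries A and B, with a log2 fold change of -1.80 (SE 1.24). Col4a2 had 864 and 230.5 CPM in the WT pair and 28.5 and 304 CPM in A and B, with a log2 fold change of -1.72 (SE 1.22). The X-linked Col4a5, a chain of the kidney glomerulus and other specialised membranes, had 101 and 21.5 CPM in the WT libraries, against 4.53 and 34.4 CPM in A and B (log2 fold change -1.66, SE 1.14). All 3 had the library order of the fibrillar genes, and the groups overlapped. Col4a6, paired with Col4a5 at the other side of the same start region, was far lower per length, with 0.0117% of collagen FPKM against 0.545% for Col4a5 in WT replicate 1. It had 2.30 and 0.556 CPM in WT, compared with 0.101 and 0.747 CPM in A and B, where A held 2 counts. Col4a3 and Col4a4, the glomerular pair on chromosome 1, had at most 9 counts in any library and could not be tested. In WT replicate 1 the 921 tested genes of chromosome 8 exceeded their mean over the other 3 libraries by a median of 0.40 on the log2 scale. Col4a1 and Col4a2 stood 2.88 and 2.78 above theirs, and the X-linked Col4a5 stood 2.75 above its own. Library A, where all 3 genes were lowest, is part of that mean. The part of the chromosome 8 difference in the Col4a1 and Col4a2 values was not tested.

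Type VI chains form beaded filaments that link cells to the fibrils around them. Col6a1 had the largest fitted difference among the collagens, with 689.7 and 134 CPM in the WT pair and 11.5 and 179.7 CPM in libraries A and B (log2 fold change -2.11, SE 1.41). Col6a2, its neighbour on chromosome 10, had 437 and 111 CPM in the WT libraries, against 16.1 and 129.9 CPM in A and B (-1.91, SE 1.15). Col6a3, the long partner of both, varied less, with 265 and 130.5 CPM in WT, compared with 34.2 and 177 CPM in A and B (-0.90, SE 0.79). The 3 alternatives to it on chromosome 9 were scarce: Col6a4 lay between 1.01 and 5.59 CPM with its highest value in A, Col6a6 lay between 1.31 and 2.42 CPM, and Col6a5 had 11 counts at most.

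Among fibril-associated collagens, Col12a1, which decorates type I fibrils, was by far the most abundant. It held 1955 and 413 CPM in the WT pair and 15.7 and 554 CPM in libraries A and B, a 35.4-fold difference between the 2 Tex11PM/Y libraries, with a log2 fold change of -2.05 (SE 1.63). Col16a1 had 67.9 and 33.7 CPM in the WT libraries, against 2.77 and 36.1 CPM in A and B (-1.38, SE 1.12). Col22a1, a collagen of tissue junctions, was level across all 4 libraries, at 16.2 and 17.3 CPM in WT, compared with 18.9 and 16.4 CPM in A and B (0.073, SE 0.41). Col20a1 was highest in WT replicate 1, at 12.6 CPM, and lay between 3.59 and 6.60 CPM elsewhere. Col9a3, a chain of the type IX collagen of cartilage, had 1.80 and 4.15 CPM in the WT pair and 11.6 and 3.44 CPM in A and B, so that A alone was high (1.33, SE 0.80). It shares 234 exonic bases with Tcfl5, a gene on the other strand at 132 and 186 CPM in the WT libraries, against 142 and 196 CPM in A and B. How reads there were counted is not stated, so they may not have been told apart. Col9a1 and Col9a2, the partners of Col9a3, held at most 18 counts in a library.

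The multiplexin Col18a1, a basement membrane collagen whose end piece is endostatin, was the least reduced of the abundant collagens in library A. It had 444 and 367 CPM in WT, compared with 143 and 377 CPM in A and B, with a log2 fold change of -0.64 (SE 0.46). WT replicates and library B lay within 1.21-fold of each other. Col15a1, the other multiplexin, had 10.5 and 5.26 CPM in the WT pair and 1.11 and 9.97 CPM in A and B. Col8a1, a short network chain of vessel walls and the eye, was 1 of 3 tested collagens whose groups did not overlap on the lower side, with Col14a1 and Col23a1 (16.3% of all genes). It had 75.7 and 42.1 CPM in the WT libraries, against 1.06 and 35.7 CPM in A and B (-1.68, SE 1.43), so that B was close to WT replicate 2 and A, at 21 counts, was far below. Col7a1, the anchoring fibril collagen of skin, had 44.0 and 26.3 CPM in WT, compared with 15.5 and 37.7 CPM in A and B. Col28a1 was the one tested collagen that was highest in B, at 11.7 CPM, against 5.73 and 5.46 CPM in WT and 1.96 CPM in A.

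Transmembrane collagens, like several matrix collagens of low level, did not share the library order of the abundant collagens. Col13a1 had the smallest p of the family. Col13a1, a membrane collagen of cell adhesion sites and the neuromuscular junction, lies at chr10:61838236-61979108 in mm10. It had 7.42 and 6.42 CPM in the WT pair and 26.6 and 12.4 CPM in libraries A and B, from 132, 127, 529 and 248 counts. Both Tex11PM/Y libraries were above both WT libraries, as also for Col8a2 and Col24a1 (3 of 38, against 16.1% of all genes). The log2 fold change was 1.49 (SE 0.54), with an unadjusted edgeR p of 0.0275 and an adjusted p of 0.884, and it lay between 0.84 without library A and 1.90 without library B. Col17a1, the hemidesmosome collagen of epithelia, had 13.2 and 14.9 CPM in the WT libraries, against 18.6 and 14.5 CPM in A and B (0.23, SE 0.44). Col25a1, a neuronal membrane collagen, had 4.55 and 12.7 CPM in WT, compared with 9.42 and 12.4 CPM in A and B (0.34, SE 0.62). Col23a1 stayed between 1.89 and 2.48 CPM. In none of the 4 was library A the lowest. This was not particular to them, as library A was lowest in 7 of 11 fibrillar and 3 of 7 tested fibril-associated genes.

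**Figure D2:**
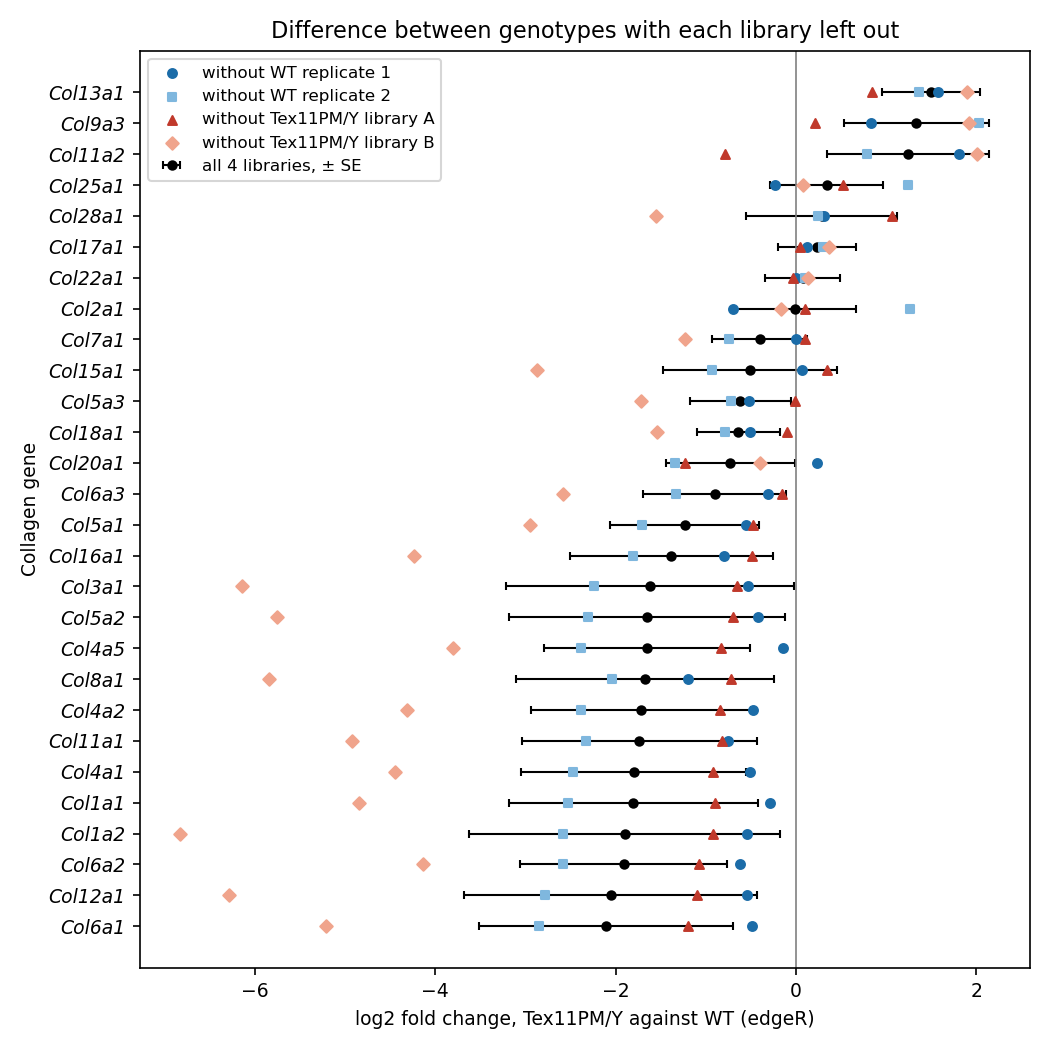
Black points are edgeR log2 fold changes, Tex11PM/Y against WT, of the 28 named collagens with their standard errors, and coloured points are the values when 1 library is left out. Fits without library B (orange diamonds) reach -6.83 for Col1a2, while those without library A (red triangles) lie at -1.23 or above.

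Because collagen levels differed so much, the make-up of what remained was compared per length, as shares of the summed collagen FPKM. That sum was 2124 and 656 FPKM in WT, against 102 and 897 FPKM in libraries A and B. Fibrillar chains made up 65.8 and 60.7% in WT, 63.7% in B and 36.4% in A. Multiplexins made up 3.15 and 9.27% in WT, 7.29% in B and 23.2% in A, and transmembrane collagens 0.200 and 0.891% in WT, 0.837% in B and 10.0% in A. So the first collagen of library A was Col18a1, with 23.0% of collagen FPKM, whereas Col1a1 led in the other 3, with 21.4 to 28.5%. Col1a1 was second in A with 14.1%, followed by Col5a1 with 8.31% and Col13a1 with 5.65%. Col1a2, second in the other 3 libraries, ranked 12 in A.

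The shares of type IV and type VI varied less than those of fibrillar chains and multiplexins. Type IV made up 12.5 and 11.7% of collagen FPKM in WT and 9.19 and 11.6% in libraries A and B. Both Tex11PM/Y values were below both WT values, by a difference of means of -1.67 percentage points (12.1 ± 0.597% against 10.4 ± 1.72%, SD, n = 2 each; exact permutation test, two-sided, p = 0.333, the smallest possible). Without library A this difference was -0.45 percentage points. Type VI made up 10.8 and 9.63% in WT and 9.53 and 9.30% in A and B.

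**Figure D3:**
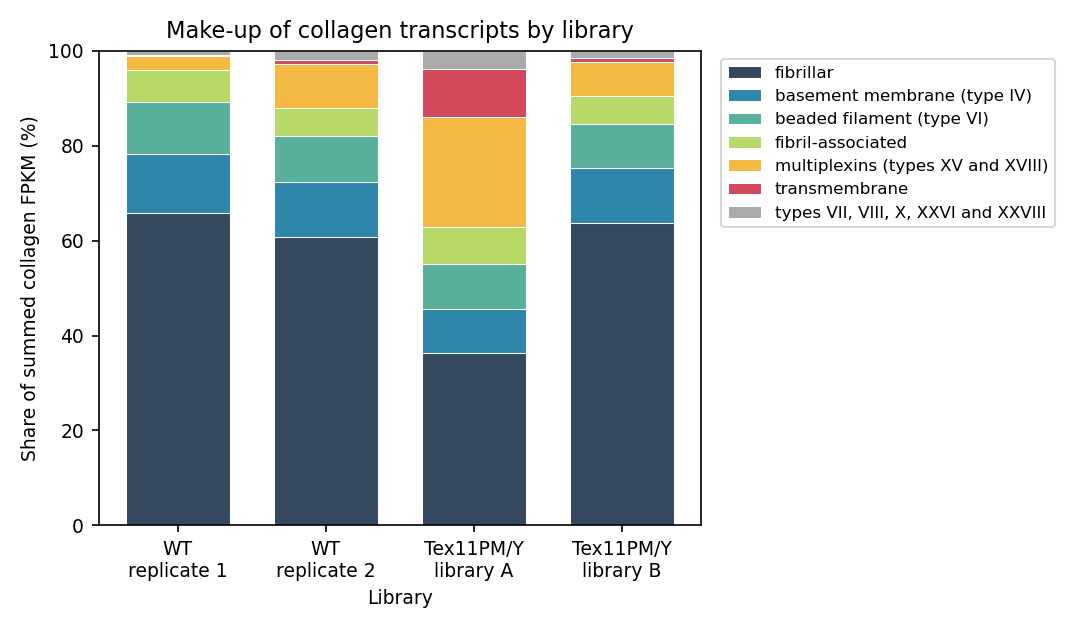
Stacked bars give the share of summed collagen FPKM, in percent, that each class held in each library. The fibrillar part is 36.4% in library A and between 60.7 and 65.8% in the other 3, and the multiplexin and transmembrane parts are widest in library A.

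Chains that are built into the same molecule were then compared within each library. Type I collagen holds 2 chains from Col1a1 and 1 from Col1a2, and type IV holds 2 from Col4a1 and 1 from Col4a2 in its common form. The FPKM ratio of Col1a1 to Col1a2 was 1.52 and 1.32 in WT and 5.78 and 1.50 in libraries A and B. The ratio of Col5a1 to Col5a2 was 1.05 and 1.73 in WT and 8.23 and 1.36 in A and B. For Col6a1 to Col6a2 it was 1.58 and 1.17 in WT and 0.696 and 1.36 in A and B. In these 3 pairs library A stood outside the range of the other libraries. The ratio of Col4a1 to Col4a2 was 1.50 and 1.44 in WT and 1.35 and 1.41 in A and B. Library A was again outside the range of the others, but by little, at Col4a1 levels that differed by 33.6-fold between WT replicate 1 and A. In counts per kilobase the ratio in library A was 5.80 for type I (95% interval 5.15 to 6.55, counting error only), 7.96 for type V (6.76 to 9.42) and 1.37 for type IV (1.23 to 1.53). That of type VI was 1.05 in A (0.884 to 1.25) and from 1.76 to 2.31 elsewhere, higher than in FPKM by a like factor in each library. Between genotypes the log2 ratios differed by 1.06, 1.31, -0.48 and -0.090 for types I, V, VI and IV (exact permutation test, two-sided, p = 0.667, 0.667, 0.667 and 0.333, all 0.667 when adjusted over the 4 pairs).

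**Figure D4:**
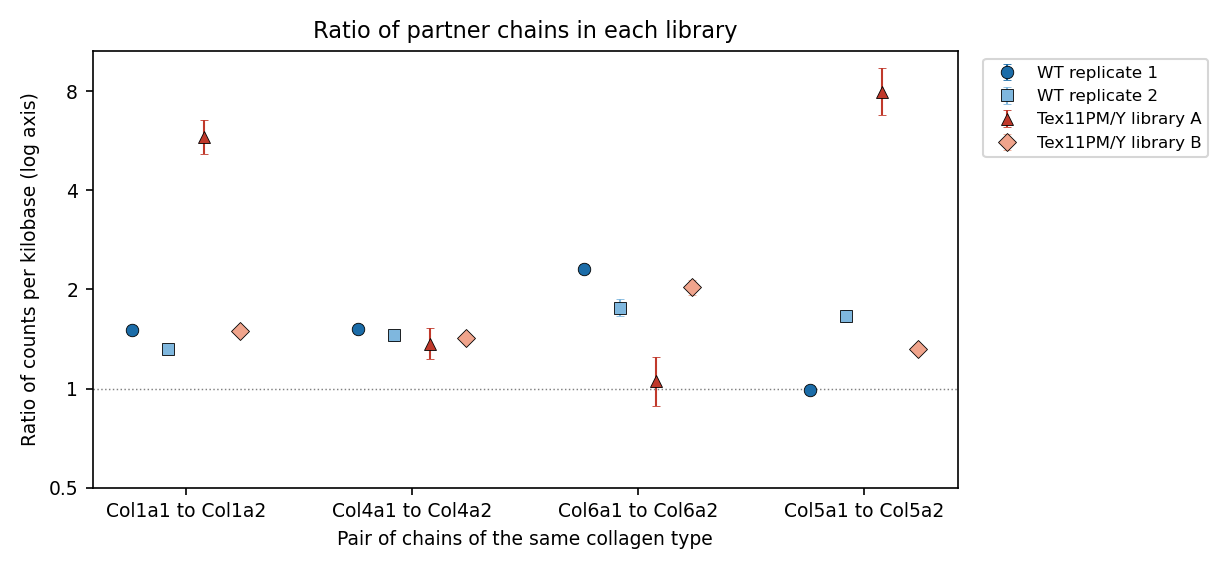
Points are ratios of counts per kilobase of partner chains in each library on a log axis, and bars are 95% intervals from counting error. Library A (red triangles) is at 5.80 and 7.96 for types I and V and near the other libraries for type IV.

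Promoters of a few members are shown because these genes shared the library order, or, for Col13a1, broke it. Each is the 120 bases before the RefSeq start on GRCm38.p6, 5′ to 3′ on the gene's strand. Capitals mark letter matches to 3 core promoter motifs, searched on both strands and at any position. The motifs are the TATA box as TATAAA, the box named for its letters CCAAT, and the GC box as GGGCGG. They lie at chr1:45311418-45311537 (plus), chr3:114030420-114030539 (plus), chr2:27886305-27886424 (plus) and chr10:61979109-61979228 (minus).
Col3a1: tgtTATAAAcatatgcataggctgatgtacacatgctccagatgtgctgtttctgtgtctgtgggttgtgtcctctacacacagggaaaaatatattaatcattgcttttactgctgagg
Col11a1: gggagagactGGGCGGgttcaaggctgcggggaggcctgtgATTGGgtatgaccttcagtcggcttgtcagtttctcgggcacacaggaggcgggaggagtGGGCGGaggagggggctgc
Col5a1: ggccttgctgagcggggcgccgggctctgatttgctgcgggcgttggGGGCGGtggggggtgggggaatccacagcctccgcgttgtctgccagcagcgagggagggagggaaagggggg
Col13a1: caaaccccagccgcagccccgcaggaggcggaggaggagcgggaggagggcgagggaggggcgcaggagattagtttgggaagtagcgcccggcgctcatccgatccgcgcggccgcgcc
In Col3a1, TATAAA lay 117 to 112 bases before the start. Col11a1 held CCAAT on the other strand (printed as ATTGG) 79 to 75 bases before its start, and GGGCGG at 110 to 105 and 19 to 14 bases. Col5a1 held GGGCGG at 73 to 68 bases, and the 120 bases of Col13a1 held none of the 3 motifs. Windows of 300 bases, from 250 before the start to 50 after it, were matched for 35 of the 44 collagens. Either strand of these held GGGCGG in 22 of 35 collagens (62.9%, against 35.7% of 32851 windows of all genes). CCAAT was in 13 (37.1%, against 37.4%) and TATAAA in 5 (14.3%, against 13.6%). A collagen was counted if any of its windows held the motif, whereas the share of all genes is over single windows, so these shares differ in unit. Each motif was counted without regard to overlap with the others, and the matches describe the windows only.

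Genes that make, anchor and remove collagen were taken from 6 lists with 77 genes. Of the 75 that could be tested, none passed the edgeR threshold in either direction (0.0% of all genes each). The 24 genes of chain modification and folding had a median log2 fold change of -0.73, with 20 fitted lower. P4hb, a subunit of prolyl hydroxylase that also serves other proteins, had 1188 and 852 CPM in the WT pair and 604 and 927 CPM in libraries A and B. Its range was 1.97-fold, in the shared library order of the collagens. Serpinh1, the collagen chaperone HSP47, had 448 and 140.2 CPM in the WT libraries, against 68.5 and 152 CPM in A and B (-1.42, SE 0.62). P3h3, a prolyl 3-hydroxylase family member, had 68.8 and 19.9 CPM in WT, compared with 2.77 and 21.5 CPM in A and B (-1.87, SE 1.06), the lowest log2 fold change of the list. Colgalt1, which puts galactose on hydroxylysine, had 225 and 112 CPM in the WT pair and 129.8 and 122 CPM in A and B, and Colgalt2 had the largest positive value (0.49, SE 0.79) at 2.92 CPM or less.

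Genes that act on collagen outside the cell had a lower median than those of modification and folding. The 13 genes of cleavage and crosslinking had a median log2 fold change of -1.42, with 11 fitted lower and 9 lowest in library A. Lox, the lysyl oxidase that starts crosslinks, had 1818 and 433 CPM in the WT libraries, against 12.6 and 483 CPM in A and B (-2.18, SE 1.63). Pcolce, an enhancer of procollagen cleavage, had 170.4 and 54.1 CPM in WT, compared with 3.42 and 67.6 CPM in A and B. Loxl2, a further lysyl oxidase, had 160.4 and 67.0 CPM in the WT pair and 1.96 and 60.3 CPM in A and B. In all 3, library A was far below the others and library B close to WT replicate 2. Only Tll2 and Adamts3 of the list were fitted higher, and Tll2 had 0.393 and 1.37 CPM in the WT libraries, against 3.17 and 1.64 CPM in A and B (1.44, SE 0.84).

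Fibril partners had the lowest median of the 6 pathway lists, -1.61 over 10 genes, with 9 fitted lower and 9 lowest in library A. Fn1, the fibronectin gene, had 3108 and 1103 CPM in WT, compared with 248 and 1121 CPM in A and B. Sparc, a collagen-binding matrix protein, had 1391 and 352 CPM in the WT pair and 23.6 and 481 CPM in A and B. Bgn, the proteoglycan biglycan, had 932 and 271 CPM in the WT libraries, against 10.5 and 385 CPM in A and B. Fmod, fibromodulin, was at 3.82 and 1.01 CPM in WT, at 0 in A and at 0.797 CPM in B, and Tnxb had a log2 fold change of 0.018 (SE 0.71).

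The 11 partners of type IV in basement membranes had a median log2 fold change of -0.98, with 9 fitted lower, beside a median of -1.72 for the 4 tested type IV genes; the difference was not tested. Nid2, a nidogen that links laminin to type IV, was nearly level, with 372 and 350.5 CPM in WT, compared with 335 and 406 CPM in libraries A and B. Lamb1, a laminin chain, had 437 and 441 CPM in the WT pair and 179.9 and 266 CPM in A and B, so that both Tex11PM/Y libraries were below both WT libraries (-0.98, SE 0.32, unadjusted p = 0.0170, edgeR adjusted p = 0.884). It lies on chromosome 12, where 632 tested genes in WT replicate 2 exceeded their mean over the other 3 libraries by a median of 0.57 on the log2 scale; the part of this in the Lamb1 values was not tested. Hspg2, perlecan, had 506 and 203 CPM in the WT libraries, against 135 and 257 CPM in A and B. Lama1 was high in A alone, with 3.82 and 5.66 CPM in WT, compared with 23.97 and 4.63 CPM in A and B (1.59, SE 0.80). Lama2, a laminin chain of muscle and stroma, had 81.3 and 12.9 CPM in the WT pair and 3.22 and 10.7 CPM in A and B (-2.76, SE 1.00). With no filter on low counts, 3 of 77 pathway genes, Lama2, Nid1 and Serpinh1, passed the threshold on the lower side (edgeR adjusted p = 0.000875, 0.0174 and 0.0410), with 0.103% of all genes there. For Lama2 the log2 fold change was then -2.77 with an SE of 0.519. Its estimate thus hardly moved, and the SE was smaller than with the filter.

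Receptors and breakdown genes completed the pathway. Of 10 receptor genes 8 were tested, with a median log2 fold change of -0.94 and 7 fitted lower. Itgb1, the beta chain of all collagen-binding integrins, had 705 and 354 CPM in the WT libraries, against 273 and 305 CPM in A and B. Ddr1, a receptor tyrosine kinase for collagen, had 222 and 153 CPM in WT, compared with 89.0 and 97.5 CPM in A and B, lower in both Tex11PM/Y libraries (-1.01, SE 0.31, unadjusted p = 0.0137, edgeR adjusted p = 0.884). Mrc2, which takes up collagen fragments, had 249 and 74.9 CPM in the WT pair and 8.66 and 73.6 CPM in A and B (-1.98, SE 1.13), and Itga10 had the one value above 0 (0.14, SE 0.98). The 9 breakdown genes had a median of -1.22, with 8 fitted lower. Mmp2, a gelatinase, had 298 and 64.0 CPM in the WT libraries, against 12.6 and 97.8 CPM in A and B (-1.71, SE 1.17). Its inhibitor Timp2 had 265 and 117 CPM in WT, compared with 11.8 and 126 CPM in A and B, and Mmp14, which activates Mmp2, had 183 and 66.4 CPM in the WT pair and 18.9 and 76.5 CPM in A and B. Mmp13, a collagenase, was near 5 CPM in WT replicate 2 and library B and under 1 CPM in the other libraries, with a log2 fold change of 0.077 (SE 1.23).

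Over the 6 lists, leaving out library B gave 28 of 76 genes past the threshold, all lower (2.37% of all genes lower and 0.394% higher in that fit), Lox, Bgn, Sparc, Fn1, Mrc2 and Timp2 among them. Leaving out library A, WT replicate 1 or WT replicate 2 gave 0.

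**Figure D5:**
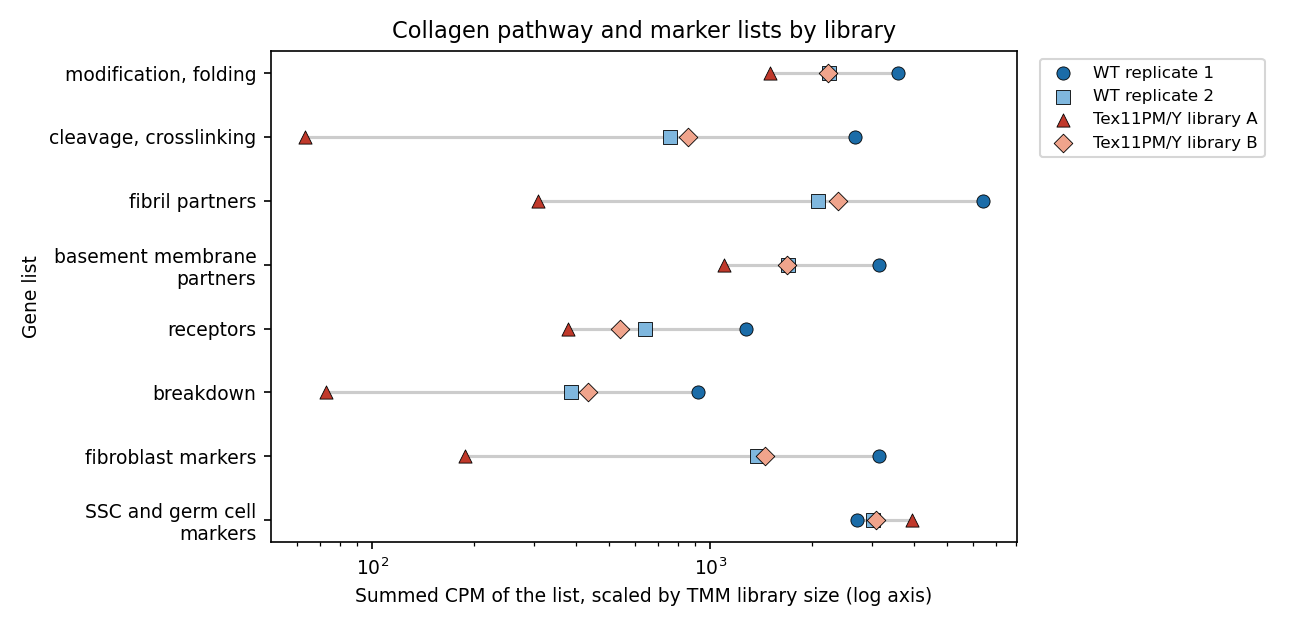
Points are the summed CPM of each list in the 4 libraries on a log axis, with a grey line over the range. Cleavage and crosslinking, fibril partners, breakdown and fibroblast markers have library A (red triangles) far to the left, while SSC and germ cell markers have it at the right, at 3950.1 CPM.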

How the data were processed

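Each library was prepared from 1 µg of RNA by poly(A) selection, and the protocol in the labels names no strand marking. Tools named in the submitters' processing notes are fastp, STAR, featureCounts, StringTie and DESeq2, with mm10 as the build; their roles and versions, and the annotation, are not stated in those sources. The deposited tables hold raw read counts of 55335 genes and, for 37653 genes, FPKM and TPM values, all named so per the file headers. The FPKM table gave the collagen symbols, joined to the counts by gene identifier. Since the Tex11PM/Y columns have identical names, they cannot be tied to replicate numbers and are called A and B in column order.

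Counts were fitted with edgeR 4.0.16 under R 4.3.3 (filterByExpr, TMM, robust quasi-likelihood F test, genotype as the only term). P-values were adjusted over all 17262 genes by Benjamini-Hochberg, at 0.05. DESeq2 1.42.0 and limma 3.58.1 were alternatives. Shares and ratios were compared with exact permutation tests in Python 3.11.15 with scipy 1.17.1. The fit was checked on simulated data. At the dispersion estimated from these libraries, it called 4% of genes with a simulated log2 change of 1. It called 41% of those with a change of 2. In the same simulation 9 genes without a change were also called. The changed genes were drawn at random from well-counted genes, so the shares for collagens may differ. A gene that is not called here may thus still differ by that much.

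Sequences came from GENCODE M21, where the identifier with version matched for 42 collagens and the span was equal for 34, and from RefSeq promoters. Named collagens were those with a mean of at least 5 CPM and the 3 largest fitted differences in each direction; of each pathway list, the 3 most abundant genes and the largest difference in each direction. Members, classes and lists were chosen with earlier results of these data known.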

Additional observations from a re-analysis of the deposited data

How the results depend on the processing

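Of 336 fitted values for 28 named collagens under the alternatives, 306 kept their sign and stayed short of the threshold, 13 passed it and 17 turned in sign, in 8 genes. Leaving out single libraries gave 0 to 13 collagens past the threshold, 0 to 28 pathway genes and a median collagen log2 fold change of -1.55 to -0.29; the 13, the 28 and -1.55 are without library B, where the smaller design holds 1 Tex11PM/Y library. Pathway genes past the threshold numbered 3 with no count filter. The collagen share of counts differed by -1.25 to -0.13 percentage points over the same omissions, and the type IV share of collagen FPKM by -2.88 to -0.45. Log2 fold changes of 8 collagens turned in sign over these omissions, with ranges of -0.79 (without A) to 2.01 for Col11a2, -2.87 to 0.34 (without A) for Col15a1, -1.34 to 0.24 (without WT replicate 1) for Col20a1, -0.032 (without A) to 0.13 for Col22a1, -0.24 (without WT replicate 1) to 1.24 for Col25a1, -1.55 (without B) to 1.06 for Col28a1, -0.70 to 1.27 (without WT replicate 2) for Col2a1 and -1.23 to 0.10 (without A) for Col7a1. Without WT replicate 1, Col15a1 and Col7a1 had 0.068 and 0.0034, and without A, Col2a1 had 0.097. On other scales, Col28a1 had -0.087 with limma on log2(FPKM + 0.1). Col2a1 had 0.018 scaled by library size alone, 3.84e-05 with a filter of 1 CPM in 2 libraries, and 0.13, 0.33 and 0.32 with limma on log2(FPKM + 1), log2(FPKM + 0.1) and log2(TPM + 1). The cause was not tested. On log2(TPM + 1) the median of all genes was 0.17. No paired analysis was possible because the Tex11PM/Y columns carry no distinct replicate numbers.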
